A study of Rattus norvegicus with 183 samples.

Results

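Rats whose posterior ventral tegmental area held much or little immediate early gene RNA at the time of sampling were set against each other. The tissue, a midbrain region that holds dopamine neurons, came from outbred heterogeneous stock rats, and polyA RNA of each dissected sample was sequenced. Of 183 samples, 152 have values and 31 are labelled as removed. The 141 libraries with at least 10 counts per 1e6 (CPM) of Th, the enzyme that limits dopamine synthesis, were ranked by the mean log2(CPM + 1) of Fos, Junb and Egr1, here called the score. The members were thus chosen by the measured levels of these 3 genes. The 30 highest libraries form the high side and the 30 lowest the low side, so 60 of the 152 libraries are compared and 81 lie on neither side. The labels give no treatment, age, sex or batch for either side. Identifiers are hexadecimal in 22, decimal in 7 and of another form in 1 of the high libraries, and hexadecimal in 18 and decimal in 12 of the low libraries. Xist RNA was above Ddx3y RNA in 16 of 30 high and 11 of 30 low libraries. These RNAs mark females and males, and 3 high libraries, 0 low libraries and 1 of the 81 others held more than 10 CPM of both. Because measured values made the sides, a difference between them is an association across animals and not the effect of a treatment.

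Immediate early genes are transcribed within minutes of a stimulus from factors already present in the cell, without new protein. In neurons, calcium entry and the MAP kinase and cyclic AMP pathways act on the factors SRF, ELK1 and CREB at the promoters of these genes. Many of the products are themselves transcription factors: FOS and JUN proteins pair as AP-1, EGR proteins are zinc finger factors, and NR4A proteins are orphan nuclear receptors. Others, such as ARC and the dual-specificity phosphatases, act on synapses or switch the kinases off again. In the ventral tegmental area, FOS and its relatives are commonly used as markers of cells that were recently active.

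The values that made the sides are given as a description. Fos was at 6.66, 9.34 and 28.6 CPM (lowest, median and highest) in high libraries, against 1.79, 4.13 and 6.31 CPM in low libraries. Egr1 was at 16.5, 20.0 and 73.1 CPM in high libraries, against 5.14, 8.79 and 14.0 CPM in low libraries. Junb was at 9.48, 14.1 and 33.9 CPM in high libraries, against 6.68, 9.32 and 12.4 CPM in low libraries. Fos and Egr1 did not overlap between the sides and Junb did. The score lay between 3.68 and 5.15 with a median of 3.90 in high libraries, and between 2.60 and 3.14 with a median of 3.04 in low libraries. The limits of the sides fall in a continuous range: the lowest high library, hexadecimal 41, had 17.8 CPM of Egr1 and 9.64 CPM of Fos, and the library just outside, decimal 26, had 15.0 and 10.2 CPM. At the other end, the highest low library, hexadecimal 32, had 9.21 CPM of Egr1 and 5.16 CPM of Fos, and the library just outside, decimal 6, had 10.0 and 3.73 CPM.

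**Figure D1:**
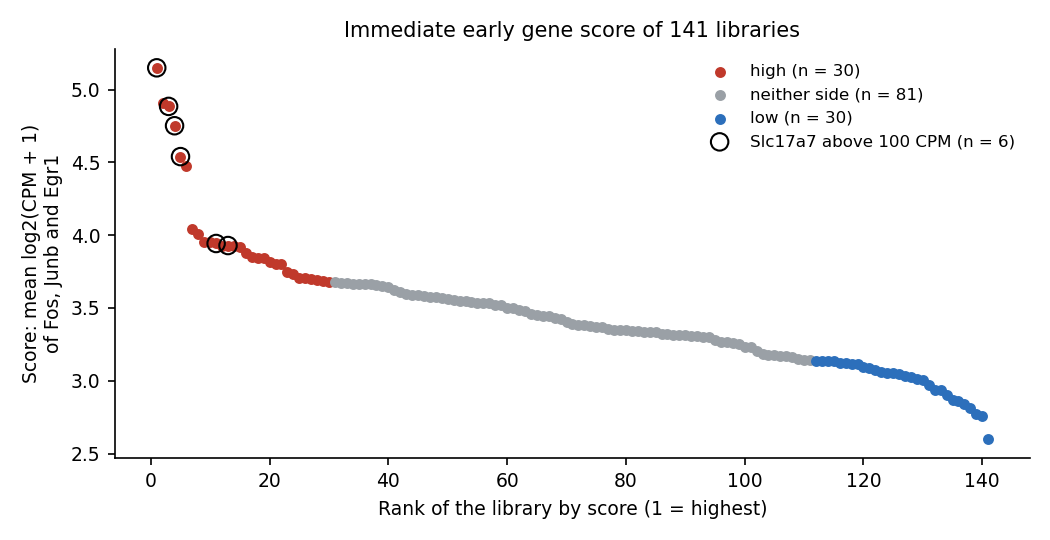
The score (mean log2(CPM + 1) of Fos, Junb and Egr1) of each of the 141 libraries is plotted by its rank, with the 30 high libraries in red, the 81 of neither side in grey and the 30 low libraries in blue. The score fell smoothly except at the top, where a few libraries stand apart, and the 6 libraries ringed in black, with more than 100 CPM of Slc17a7, all lie on the high side.

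Before any gene is compared, 6 of the high libraries stand apart in another way. Slc17a7, the vesicular glutamate transporter typical of cortical, hippocampal and some brainstem neurons, lay above 100 CPM in 6 high libraries and in 0 of the low and 0 of the 81 other libraries. These 6 libraries hold ranks 1, 3, 4, 5, 11 and 13 of the score, with 155, 1064, 607, 293, 153 and 109 CPM of Slc17a7. They are not alike in Camk2a, a kinase abundant in forebrain excitatory neurons. Camk2a was at 71.8 and 115 CPM in the libraries with 1064 and 607 CPM of Slc17a7. In the library with 293 CPM of Slc17a7 it was at 551 CPM. Neurod2 ran the other way and was highest, at 51.2 and 35.3 CPM, in the libraries with 1064 and 607 CPM of Slc17a7. It was at 12.8 CPM in the library with 293 CPM, and between 7.86 and 8.05 CPM in the rest of these libraries. Values without these 6 libraries, which leave 23 high libraries in the fit, are given for the called genes. Of the 3 high libraries with both Xist and Ddx3y RNA, hexadecimal 43 (135 CPM of Xist and 36.4 CPM of Ddx3y) is among these 6 and was relabelled. The others are hexadecimal 35 (31.9 and 59.3 CPM) and decimal 57 (37.8 and 63.6 CPM). Totals were 15.5 to 36.3 M estimated counts (M stands for 1e6) with a median of 23.0 M in high libraries, and 17.7 to 49.9 M with a median of 24.0 M in low libraries (two-sided permutation test of the means, p = 0.245, Benjamini-Hochberg adjusted p = 0.368 over 3 library properties). Genes with a count (medians 24014 in high and 23849 in low libraries, p = 0.956) and the share of the 20 most abundant genes (medians 7.71% in high and 8.03% in low libraries, p = 0.0494, adjusted p = 0.148) were the other properties.

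Of the immediate early and activity genes that took no part in the ranking, 16 were higher on the high side, with Nr4a1, Fosb, Egr3, Arc and Nr4a3 showing the largest differences, and most of the others were not called. Of 15543 genes tested with limma, 82 were higher (0.528%) and 11 lower (0.0708%) on the high side at a Benjamini-Hochberg adjusted p under 0.05, and 2764 passed an unadjusted p of 0.05. The 5 lists of activity genes have 95 distinct entries without the 3 ranking genes, and 89 of them were tested. Of these, limma called 16 higher and 0 lower. At an unadjusted p of 0.05, 45 had a positive and 1 a negative difference. A rank-sum test with the same adjustment, on all 30 libraries of each side and without identifier format as covariate, called 13 higher and 0 lower. The difference was positive for 74 and negative for 15 of the 89, and their median was 0.17 on the log2 scale, against a median of 0.03 and a positive difference in 61.04% of all genes tested. The differences were small in general: 54 of the 82 higher genes differed by less than 0.5 on the log2 scale. No tested gene had sides that did not overlap (0 of 15543).

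The EGR and NR4A factors had the largest share of called members among the 5 activity lists, with 5 of 7 tested genes higher. Nr4a1, an orphan nuclear receptor of the first wave of induction, was at 7.24, 13.8 and 97.6 CPM (lowest, median and highest) in high libraries, against 3.78, 6.57 and 9.46 CPM in low libraries. All 30 high libraries lay above the median of the low side, and 25 of them lay above its highest library. Its log2 difference was 1.00 ± 0.14 (SE, n = 29 and 30 in the fit, which drops the library with another identifier form), with an adjusted p of 3.53e-06 in limma with Benjamini-Hochberg adjustment. Nr4a3, another orphan receptor of the family, was at 1.56, 4.47 and 12.3 CPM in high libraries, against 1.37, 2.51 and 3.74 CPM in low libraries. The sides overlapped at their lower ends, with 19 of 30 high libraries above every low one and a log2 difference of 0.73 ± 0.12 (limma adjusted p = 0.000626).

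Nr4a2, the remaining family member, stands apart from the other NR4A genes. It is also a factor that dopamine neurons need throughout life. Its levels were 23.9, 61.1 and 105 CPM in high libraries, against 48.4, 76.7 and 101 CPM in low libraries. Only 8 of 30 high libraries lay above the low median, and the log2 difference of -0.33 ± 0.12 did not pass the test (limma adjusted p = 0.142).

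Among the EGR genes, Egr3 was at 0.609, 1.64 and 26.6 CPM in high libraries, against 0.268, 0.825 and 4.30 CPM in low libraries. Its log2 difference of 0.86 ± 0.22 passed the test narrowly (limma adjusted p = 0.0462), and 8 high libraries lay above every low one. Without the 6 libraries with much Slc17a7 it was 0.54 and did not pass (limma adjusted p = 0.128). Egr4 rose by 0.67 ± 0.15 on the log2 scale (limma adjusted p = 0.0184). It was at 0.232, 1.55 and 12.0 CPM in high libraries, against 0.169, 0.713 and 1.69 CPM in low libraries, and 13 of 30 high libraries lay above the low range. Without the same 6 libraries it differed by 0.39 and did not pass (limma adjusted p = 0.0918). Nab2, a co-repressor that binds EGR proteins and is itself induced by them, rose by 0.50 ± 0.09 (limma adjusted p = 0.00254). It was at 6.15, 9.96 and 20.1 CPM in high libraries, against 4.66, 6.90 and 12.3 CPM in low libraries, so the ranges overlapped broadly. Egr2 lay under the filter on low values and was not tested; its medians were 0.394 CPM in high and 0.153 CPM in low libraries.

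Of the AP-1 subunits and partners, 2 of the 9 tested members (of 11 listed) were higher. Fosb, whose shortened product accumulates after repeated stimulation, was at 1.05, 2.36 and 9.08 CPM in high libraries, against 0.1001, 0.907 and 1.77 CPM in low libraries. Every high library lay above the low median, 22 of 30 lay above the whole low range, and the log2 difference was 0.95 ± 0.12 (limma adjusted p = 1.19e-06). Fosl2, a FOS relative that is induced later and lasts longer, was at 4.97, 9.62 and 40.6 CPM in high libraries, against 4.29, 6.37 and 9.90 CPM in low libraries. The log2 difference was 0.64 ± 0.11 (limma adjusted p = 0.00168), and 14 high libraries exceeded every low one. Jun, the main partner of FOS, was at 38.9, 62.1 and 85.4 CPM in high libraries, against 42.8, 56.04 and 73.4 CPM in low libraries, a log2 difference of 0.15 ± 0.06 that did not pass (limma adjusted p = 0.144). Atf3, an AP-1 partner of injury and stress responses, differed by 0.32 ± 0.09 and also did not pass (limma adjusted p = 0.0536).

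**Figure D2:**
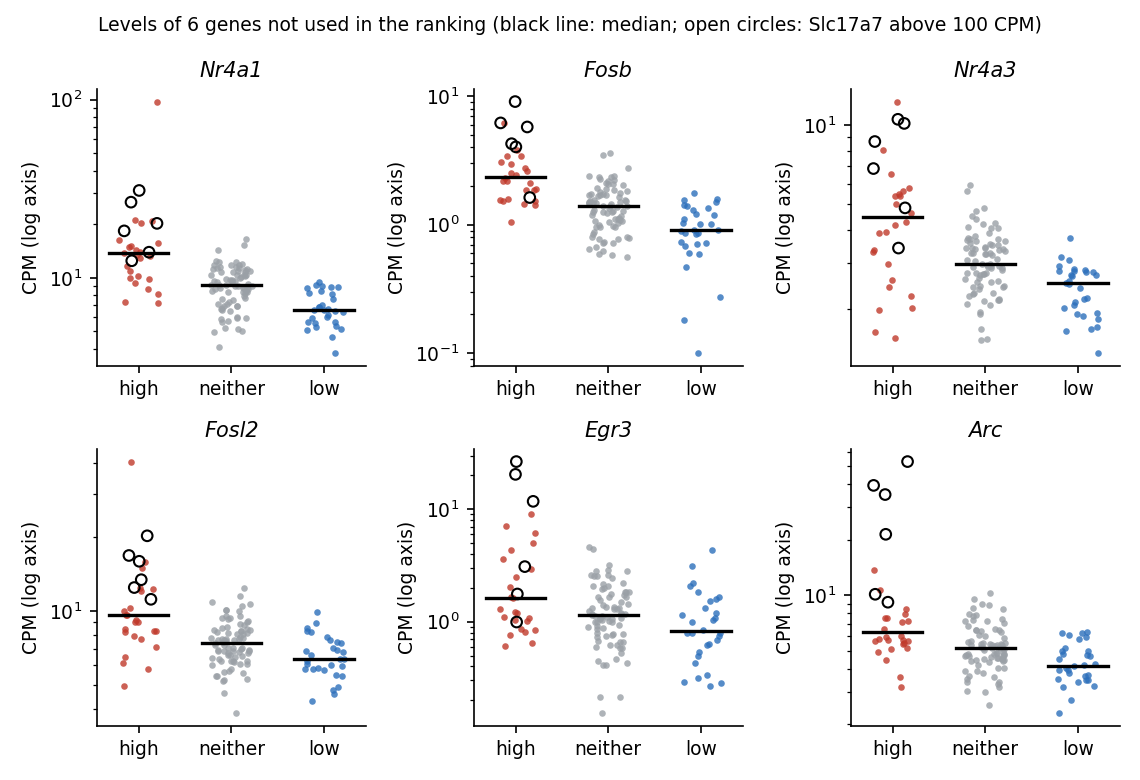
CPM on a log axis of 6 genes that were not used in the ranking, with 1 point per library for the high side (left, n = 30), the libraries of neither side (middle, n = 81) and the low side (right, n = 30), black lines at the medians and open circles for the 6 libraries with more than 100 CPM of Slc17a7. Medians ran high, neither, low in all 6 panels (for Nr4a1 13.8, 9.07 and 6.57 CPM), while for Egr3 and Arc the highest points are mostly open circles.

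Among 29 other rapidly induced regulators that were tested, 4 were higher and 0 lower. Klf2, a zinc finger factor prominent in endothelial cells, was at 13.7, 18.7 and 32.9 CPM in high libraries, against 8.19, 13.8 and 26.8 CPM in low libraries, and 29 of 30 high libraries lay above the low median (log2 difference 0.45 ± 0.08, limma adjusted p = 0.00404). Btg2, an antiproliferative cofactor of RNA deadenylation, was at 12.2, 16.6 and 34.3 CPM in high libraries, against 7.97, 13.3 and 18.2 CPM in low libraries (log2 difference 0.35 ± 0.07, limma adjusted p = 0.00980). Klf4, another zinc finger factor, and Ier2, a small nuclear protein of the first wave, rose by 0.38 ± 0.08 and 0.30 ± 0.07 on the log2 scale (limma adjusted p = 0.0179 and 0.0316). When the 6 libraries with much Slc17a7 were left out, Klf2 (0.45) and Btg2 (0.33) passed, and Klf4 (0.38, limma adjusted p = 0.0633) and Ier2 (0.27, limma adjusted p = 0.102) did not. In all 4 genes the ranges of the sides overlapped, and at most 7 of 30 high libraries lay above the low range. Npas4, a calcium-induced factor largely restricted to neurons, was under the filter and not tested. It was at 0.591, 1.495 and 8.99 CPM in high libraries, against 0.107, 0.590 and 1.44 CPM in low libraries.

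Of the activity-regulated effector genes, 3 of 29 tested members were higher and 0 lower in limma (15 and 0 at an unadjusted p of 0.05). Arc, a protein that removes AMPA receptors from synapses, was at 3.20, 6.31 and 53 CPM in high libraries, against 2.30, 4.16 and 6.36 CPM in low libraries. It was above the low median in 28 of 30 high libraries, with a log2 difference of 0.81 ± 0.17 (limma adjusted p = 0.0179). Plk2, a kinase that weakens synapses after strong activity, was at 18.7, 24.9 and 46.3 CPM in high libraries, against 17.3, 21.3 and 27.6 CPM in low libraries (log2 difference 0.27 ± 0.06, limma adjusted p = 0.0250). Ccn2, a secreted matrix protein also made by vascular cells, was at 7.91, 14.4 and 39.1 CPM in high libraries, against 5.70, 10.6 and 22.3 CPM in low libraries (log2 difference 0.52 ± 0.13, limma adjusted p = 0.0461). In the fit without the 6 libraries with much Slc17a7, Arc differed by 0.44 and passed (limma adjusted p = 0.0374), while Plk2 at 0.17 and Ccn2 at 0.51 did not (limma adjusted p = 0.0932 and 0.117). The Ccn2 relative Ccn1 differed by 0.47 ± 0.13 and did not pass (limma adjusted p = 0.0564).

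The feedback arm showed 2 of 15 tested MAP kinase phosphatases and pathway inhibitors higher and 0 lower. Dusp1, a nuclear phosphatase that inactivates MAP kinases, was at 19.2, 28.5 and 61.7 CPM in high libraries, against 14.9, 19.7 and 37.4 CPM in low libraries. It exceeded the low median in 29 of 30 high libraries, with a log2 difference of 0.43 ± 0.10 (limma adjusted p = 0.0250). Dusp5, a nuclear phosphatase specific for ERK, differed by 0.34 ± 0.09 at a lower level, with medians of 1.44 CPM in high and 1.01 CPM in low libraries (limma adjusted p = 0.0462). Dusp1 at 0.32 and Dusp5 at 0.19 did not pass without the 6 libraries with much Slc17a7 (limma adjusted p = 0.117 and 0.148). Of 25 components upstream of these genes (kinases, calcium channels, CREB, ELK and MEF2 factors), 0 were called in either direction by limma, against 0.528% higher and 0.0708% lower of all genes. At an unadjusted p of 0.05, 12 of the 25 had a positive and 0 a negative difference, against 2764 of all 15543 genes in either direction. The largest difference was 0.60 ± 0.17 for Mef2c (adjusted p = 0.0661), an activity-dependent factor of forebrain neurons. Without the 6 libraries with much Slc17a7 it was 0.37.

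The 250 bases before the transcription starts of the called activity genes were searched for sites known from immediate early promoters. Of the 16 activity genes, 12 have a promoter in the RefSeq table (GRCr8). The cyclic AMP response element TGACGTCA, which reads the same on both strands, was in 4 of the 12 (Btg2, Dusp1, Ier2 and Plk2), against 1.59% of 33469 promoters and 2.45% of those of tested genes. Its core TGACG, or CGTCA on the other strand, which the full element contains, was in 7 of the 12, against 18.2% of all and 24.6% of tested promoters. The CArG box, which SRF binds, was in 1 of the 12 (Dusp5), against 1.497% of all promoters. Shown 5′ to 3′ up to the base before the start are the promoters of Nr4a1 and Btg2, which were called in 19 and 17 of the 20 alternatives given in the closing section, and of Dusp1 and Dusp5, the phosphatases, with every match in capitals.
Nr4a1, chr7:134259888-134260137, plus strand: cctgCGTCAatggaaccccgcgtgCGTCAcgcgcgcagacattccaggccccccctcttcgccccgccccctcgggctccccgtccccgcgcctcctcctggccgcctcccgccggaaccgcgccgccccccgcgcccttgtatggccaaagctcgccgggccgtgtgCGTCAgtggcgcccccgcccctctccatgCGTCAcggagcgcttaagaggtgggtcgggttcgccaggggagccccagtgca
Btg2, chr13:48087691-48087940, minus strand: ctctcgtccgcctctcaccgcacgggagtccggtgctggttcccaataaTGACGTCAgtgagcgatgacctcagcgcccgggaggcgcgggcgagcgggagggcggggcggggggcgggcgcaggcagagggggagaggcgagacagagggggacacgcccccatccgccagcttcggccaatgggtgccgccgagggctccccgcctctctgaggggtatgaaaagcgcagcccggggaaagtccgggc
Dusp1, chr10:17184603-17184852, plus strand: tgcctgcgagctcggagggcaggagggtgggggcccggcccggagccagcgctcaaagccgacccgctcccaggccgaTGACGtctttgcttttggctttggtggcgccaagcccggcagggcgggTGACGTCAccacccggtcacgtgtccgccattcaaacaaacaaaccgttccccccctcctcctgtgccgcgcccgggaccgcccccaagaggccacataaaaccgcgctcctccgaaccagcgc
Dusp5, chr1:262543524-262543773, plus strand: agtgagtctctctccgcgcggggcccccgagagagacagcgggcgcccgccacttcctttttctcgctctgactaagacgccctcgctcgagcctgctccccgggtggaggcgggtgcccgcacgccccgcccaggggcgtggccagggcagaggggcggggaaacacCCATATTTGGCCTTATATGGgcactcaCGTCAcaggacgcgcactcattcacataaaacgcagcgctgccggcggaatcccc
The full element stood 201 to 194 bases before the start in Btg2, 124 to 117 bases before it in Dusp1, and 66 to 59 bases before it in both Ier2 and Plk2. In Dusp5 the long capital run holds 2 adjoining CArG boxes, and Nr4a1 has 4 copies of the core. The start that RefSeq gives for Nr4a1 lies downstream of the position in the deposited table, so another start of this gene was not searched. These matches describe letters in a window, and no binding was measured. The 12 come from lists of known activity genes, and the sites searched are those known from such promoters. An excess over all promoters can therefore follow from the choice of lists. Listed genes that were not called were not counted apart, so the matches do not bear on the difference between the sides.

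Genes outside the activity lists made up most of the calls: 63 of the 82 higher genes are in no list, and Slc17a7, Kdr and Hlf are on cell type or circadian lists. By size, those that met the naming rule were Slc17a7, Gda, Coch, Chrm1, Rasgrp1, Myo5b, Pcdhgc5, Ankrd33b and Kcnq5, beside the activity genes given above. Slc17a7 had the largest difference among the called genes, 2.18 ± 0.54 on the log2 scale (limma adjusted p = 0.0404). It was at 0.809, 19.0 and 1064 CPM in high libraries, against 0.255, 1.88 and 34.6 CPM in low libraries. It did not pass without the 6 libraries above 100 CPM, where the log2 difference was 1.14 (limma adjusted p = 0.159).

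The other 8 encode proteins of several kinds. Chrm1, the M1 muscarinic acetylcholine receptor, was at 0.877, 3.99 and 25.4 CPM in high libraries, against 0.803, 2.24 and 7.98 CPM in low libraries (log2 difference 0.86 ± 0.20). Rasgrp1, an activator of RAS that responds to calcium and diacylglycerol, had medians of 24.1 CPM in high and 15.8 CPM in low libraries (0.84 ± 0.20). Kcnq5, a potassium channel subunit of the M current, had medians of 19.3 CPM in high and 13.6 CPM in low libraries (0.65 ± 0.14). Gda, the enzyme guanine deaminase, and Coch, a secreted matrix protein, differed by 0.90 ± 0.21 and 0.88 ± 0.20. Myo5b, a vesicle motor, Pcdhgc5, a clustered protocadherin whose reads can be shared with its neighbours, and Ankrd33b differed by 0.70 ± 0.16, 0.70 ± 0.17 and 0.67 ± 0.17. All 8 passed in limma (adjusted p between 0.0179 and 0.0497). Without the 6 libraries with much Slc17a7, which also leaves fewer libraries, none of the 8 passed (adjusted p between 0.0932 and 0.159). The differences were then 0.82 for Coch, 0.75 for Gda, 0.62 for Chrm1 and 0.61 for Myo5b, and between 0.38 and 0.56 for the other 4.

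The 11 lower genes were small in difference apart from the long noncoding RNA LOC134482115. It was at 1.72, 3.54 and 21.4 CPM in high libraries, against 1.70, 9.42 and 22.8 CPM in low libraries, a log2 difference of -0.90 ± 0.21 (limma adjusted p = 0.0309), and both sides spanned nearly the same range. Ins2, an insulin gene that is a protein-coding neighbour of Th in the RefSeq table and can share reads with its close copy Ins1, was at 8.67, 16.1 and 24.1 CPM in high libraries, against 9.44, 20.5 and 28.7 CPM in low libraries (-0.37 ± 0.10, limma adjusted p = 0.04995). Rit2, a neuronal RAS-like GTPase, had medians of 255 CPM in high and 301 CPM in low libraries (-0.25 ± 0.06). Zdhhc2, a palmitoyl transferase, had medians of 69.4 CPM in high and 87.5 CPM in low libraries (-0.28 ± 0.07). The other 7 were Vnn1, a pantetheinase, Piga, which starts GPI anchor synthesis, Nus1, a subunit of dolichol synthesis, Pdcl2, C11h3orf52, Myh15l1 and Smim17, with log2 differences between -0.35 and -0.16. All ranges overlapped, and 0 of the 11 are on any list. Without the 6 libraries with much Slc17a7 none of the 11 passed (limma adjusted p between 0.0786 and 0.118), although their differences, between -0.86 for LOC134482115 and -0.16 for Nus1, kept their sign.

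Few cell type markers were called, but the signs within several lists were uniform. Over all genes only 0.528% were called higher and 0.0708% lower, so few calls in lists this short do not set the markers apart. The difference was positive in 61.04% of all genes tested. All 16 tested dopamine neuron markers had negative differences, with a median of -0.34, although 0 of 16 passed the test in limma (11 at an unadjusted p of 0.05). Th was at 604, 1632 and 3602 CPM in high libraries, against 900, 1994 and 3524 CPM in low libraries (-0.45 ± 0.13, limma adjusted p = 0.0632), and Ddc, the next enzyme of dopamine synthesis, differed by -0.47 ± 0.13 (adjusted p = 0.0539). The summed level of the 16 markers ran between 2469 and 9672 CPM with a median of 6114 CPM in high libraries, and between 3459 and 10358 CPM with a median of 7531 CPM in low libraries. In bulk tissue, fewer cells of a type and less RNA per cell cannot be told apart.

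Markers of vessels and coverings of the brain leaned the other way. All 9 meningeal fibroblast markers had positive differences, with a median of 0.61 and 0 called (3 at an unadjusted p of 0.05), and their summed level ran between 82.8 and 3196 CPM (median 998 CPM) in high libraries and between 132 and 2253 CPM (median 433 CPM) in low libraries. All 9 pericyte and smooth muscle markers were also positive (median 0.34, 0 called, 1 at an unadjusted p of 0.05). So were all 11 endothelial markers (median 0.18, 1 called, 7 at an unadjusted p of 0.05). The endothelial gene that was called is Kdr, a receptor for vascular endothelial growth factor, with medians of 20.4 CPM in high and 16.4 CPM in low libraries (0.33 ± 0.07, limma adjusted p = 0.0182), and it also passed without the 6 libraries with much Slc17a7 (0.38). All 3 tested serotonin neuron markers were positive (median 0.82, 0 called), with summed levels of 7.77 to 303 CPM (median 52.4 CPM) in high libraries and 10.6 to 73.6 CPM (median 35.7 CPM) in low libraries. Of the cortical and hippocampal neuron list, 6 of 9 members were tested and 1, Slc17a7, was called, with a median of 0.21. Its summed level ran between 68.1 and 1187 CPM (median 130 CPM) in high libraries and between 71.1 and 135 CPM (median 92.1 CPM) in low libraries. At an unadjusted p of 0.05, 2 of the 3 serotonin and 3 of the 6 cortical and hippocampal markers passed, all positive. Of 10 oligodendrocyte markers 9 were negative, with a median of -0.11 and 0 called (5 at an unadjusted p of 0.05, all negative). Astrocyte, microglia and GABA neuron markers had medians of 0.04, 0.06 and 0.10 with 0 called (0, 2 and 0 at an unadjusted p of 0.05). The part of these cell types in the differences of other genes was not tested beyond the covariates and omissions given here.

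**Figure D3:**
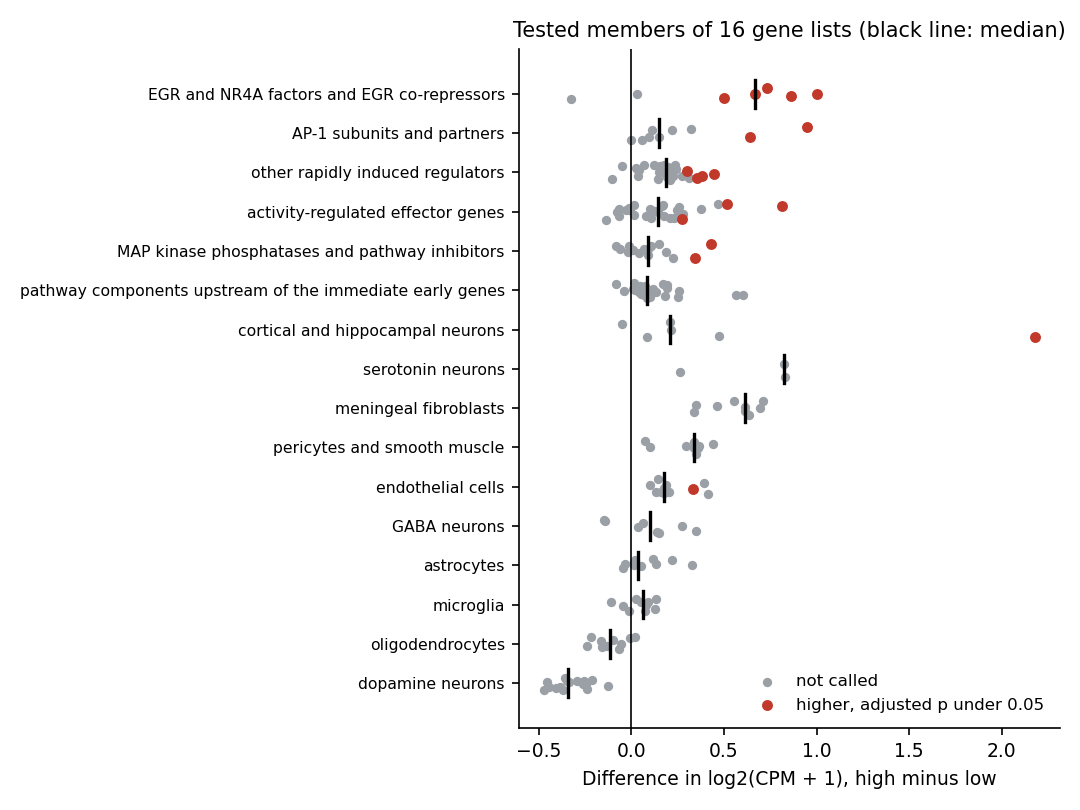
Each point is 1 tested gene of a list, placed by its difference in log2(CPM + 1), high minus low, with called genes in red and the median of each list as a black line. The EGR and NR4A list lies farthest to the right among the activity lists, dopamine neuron markers all lie left of 0, and meningeal, mural and endothelial markers all lie right of 0.

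The counts were read again with these marker levels taken into account. With the mean scores of the dopamine neuron, oligodendrocyte, cortical neuron, endothelium and meninges lists as covariates, limma called 3 genes higher (0.0193%) and 0 lower, and these 3 were Fosb, Nr4a1 and Btg2. Their log2 differences were then 0.88, 0.84 and 0.35 (adjusted p = 3.79e-06, 0.00486 and 0.00913). The median over the dopamine neuron list, which is one of the covariates, was then -0.02. Without the 6 libraries with much Slc17a7, 18 genes were higher (0.116%) and 2 lower (0.0129%), with 0 of the 11 lower genes above among those 2, and 8 of the 16 activity genes kept their call: Nr4a1, Fosb, Nr4a3, Fosl2, Nab2, Btg2, Klf2 and Arc. The log2 difference of Arc was 0.44 there, with levels of 3.20, 5.76 and 13.7 CPM in the 24 remaining high libraries.

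**Figure D4:**
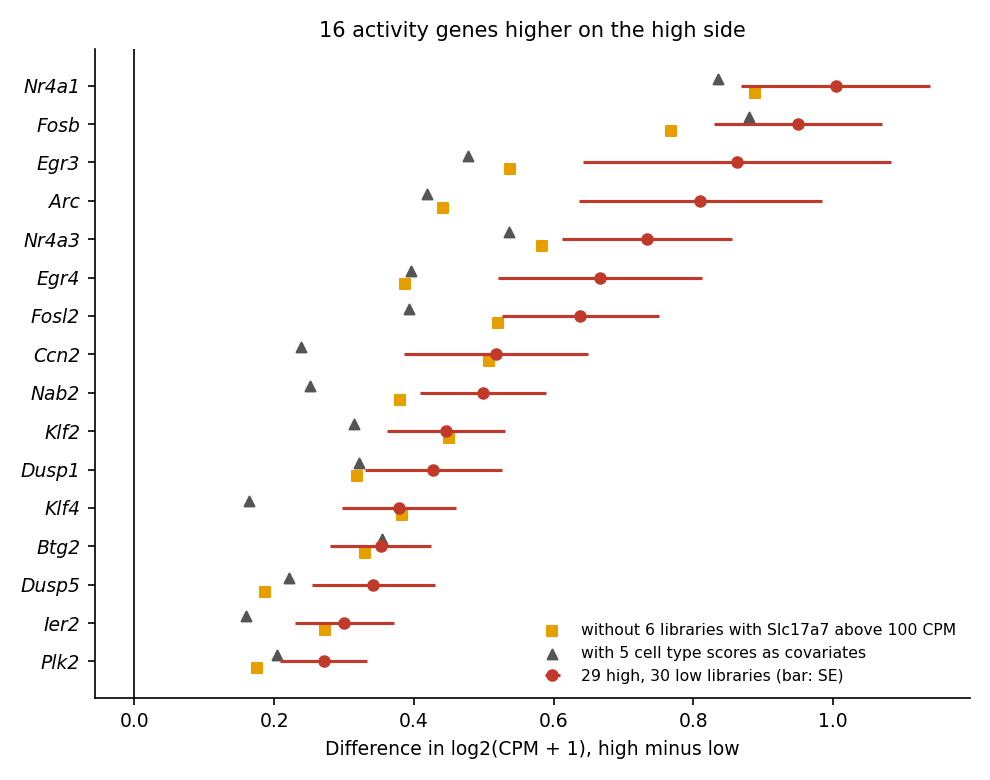
Differences in log2(CPM + 1), high minus low, of the 16 activity genes, with red points and SE bars for the 29 high and 30 low libraries of the fit, orange squares without the 6 libraries with more than 100 CPM of Slc17a7, and grey triangles with 5 cell type scores as covariates. All values lie right of 0, and the shift to the left is largest for Egr3 and Arc.

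Some libraries carry corrected labels. Of the high libraries 6 were relabelled or recovered from an unknown label, and of the low libraries 4. Without them, limma called 3 genes higher (0.0193%) and 0 lower, and these 3 were Fosb, Nr4a3 and Nr4a1, with log2 differences of 0.96, 0.69 and 1.01 (adjusted p = 5.67e-05, 0.0184 and 0.000274). Without the 3 high libraries that hold both Xist and Ddx3y RNA, 53 genes were higher (0.341%) and 13 lower (0.0836%), and 13 of the 16 activity genes were called, all but Egr3, Ccn2 and Dusp5. Scaling moved the balance of calls: with median-ratio scaling 47 genes were higher and 21 lower, so that 69.1% of calls were higher, against 88.2% with the total as divisor.

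Within each identifier format, all 93 called genes kept their sign. The formats are parts of the same libraries that gave the calls, so this agreement is partly built in. Nr4a1 differed by 1.07 in decimal and 0.98 in hexadecimal libraries on the log2 scale, and Fosb by 1.10 and 0.88. Egr3 differed by 1.42 in decimal and 0.61 in hexadecimal libraries, but the interaction of side and format called 0 genes in limma (221 passed an unadjusted p of 0.05, and the smallest adjusted p was 0.9998). The formats therefore could not be shown to differ.

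The 81 libraries on neither side allowed the relation to be measured again in animals that the contrast had not used. Per SD of the score, 0 genes had a slope past an adjusted p of 0.05 in limma, and 660 passed an unadjusted p of 0.05, 461 of them rising (2.97%) and 199 falling (1.28%). The score spans little in these animals, with an SD of 0.159 against 0.412 within the high side and 0.1385 within the low side. By p, Nr4a1 ranked 1 and Fosl2 ranked 3 of all genes. Nr4a1 gained 0.15 ± 0.03 on the log2 scale per SD of the score (unadjusted p = 1.96e-05, adjusted p = 0.305), and Fosl2 gained 0.11 ± 0.03 (unadjusted p = 0.000153, adjusted p = 0.795). Of the 89 activity genes, 17 passed an unadjusted p of 0.05 in the rising and 1 in the falling direction. All 16 activity genes called between the sides had a positive slope, and 7 of them passed an unadjusted p of 0.05. Fosb, with a slope of 0.07 ± 0.04, did not (unadjusted p = 0.0529). Of all 93 called genes, 89 had a slope of the same sign. The share of all genes with a positive slope is not given here. Because 461 genes rose and 199 fell at an unadjusted p of 0.05, part of the agreement in sign may be shared by genes in general. All 16 dopamine neuron markers had negative slopes in these libraries too, with a median of -0.07.

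**Figure D5:**
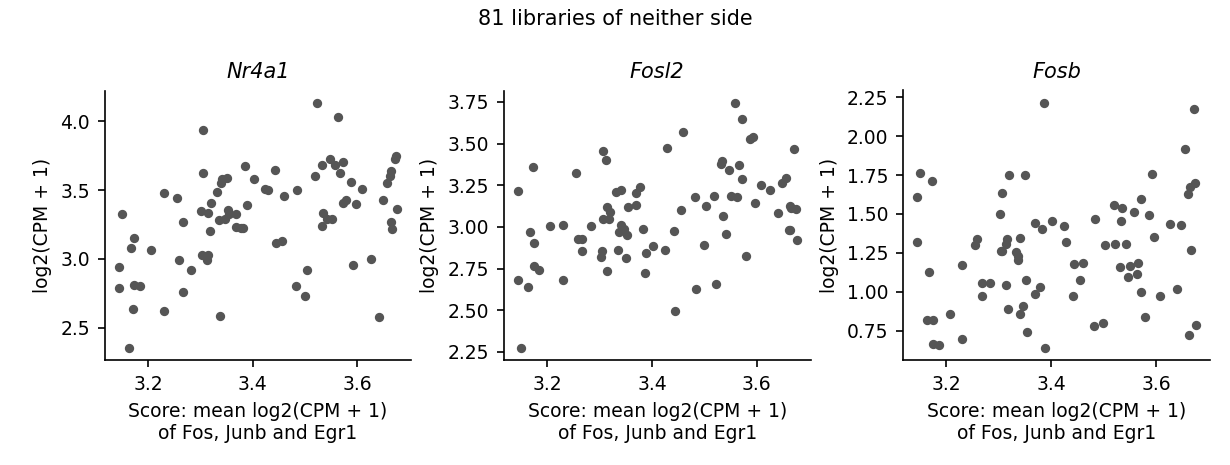
Levels as log2(CPM + 1) of Nr4a1, Fosl2 and Fosb against the score in the 81 libraries of neither side, with 1 point per library. Nr4a1 and Fosl2 tend upwards with the score and the points for Fosb scatter widely, with slopes of 0.15, 0.11 and 0.07 per SD of the score.

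In limma, few or no members of other stress and rhythm lists were called, but the share over all genes was also small (0.528% higher and 0.0708% lower). Of the heat shock (15 tested), glucocorticoid (17 tested), hypoxia and glycolysis (14 tested) and interferon (14 tested) lists, 0 genes were called in either direction. In lists this short, 0 calls do not set the members apart from other genes. At an unadjusted p of 0.05 the counts were 2, 2, 3 and 1, against 2764 of all 15543 genes tested. Across the 81 libraries of neither side, 16 of the 17 glucocorticoid targets had a positive slope on the score. So did 13 of 14 interferon, 8 of 15 heat shock and 8 of 14 hypoxia and glycolysis genes. The share of all genes with a positive slope is not given, so the sign count does not set the glucocorticoid targets apart. Of the 17 targets, 6 rose at an unadjusted p of 0.05, against 2.97% of all genes, and 0 passed after adjustment in limma. These 6 were Nfkbia, Klf15, Ddit4, Sgk1, Per1 and Arrdc2, with slopes between 0.07 and 0.18. Of the circadian list 3 of 19 passed an unadjusted p of 0.05 in the rising direction. Of the inflammatory list only 7 of 19 members were above the filter, and 0 were called (4 at an unadjusted p of 0.05), with Nfkbia, the inhibitor that ends NF-kB signalling, at 0.28 ± 0.11 (limma adjusted p = 0.180). The circadian list had 1 of 19 genes higher, Hlf, a PAR bZIP factor, with medians of 36.7 CPM in high and 28.6 CPM in low libraries (0.43 ± 0.11, limma adjusted p = 0.0461). Hlf differed by 0.27 without the 6 libraries with much Slc17a7 and did not pass (limma adjusted p = 0.117). The medians of these lists lay between -0.02 and 0.17 on the log2 scale.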

How the data were processed

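Per the submitters' processing notes, estimated counts came from kallisto 0.48, a pseudoaligner. The authors' genome build was not given in the sources used here. The deposited log2 values behave as log2(estimated count + 1): undoing the log gives 15.2 to 57.2 M counts a library, and 55.7% of values below 100 then fall within 0.001 of a whole number. The values were scaled to CPM and taken as log2(CPM + 1), so fold changes of low genes are understated.

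Genes needed a mean of at least 1 over the 141 libraries with Th. They were fitted with limma 3.58.1 (R 4.3.3, with trend), with identifier format as covariate, after a test on simulated data. The adjustment covers all 15543 genes, without Fos, Junb and Egr1. Only identifiers separate the animals. The limma p-values set a difference or slope against the residual spread between these libraries, and the sides were chosen by measured values.

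The text names the 15 called genes with the largest positive and the up to 15 with the most negative differences that have 1 sign in both formats and in the other 81 libraries, and list members. The sides, the 35 lists and the naming rule were chosen with earlier results of these data known. Alternatives concerned scaling, filter, pseudocount, covariates, libraries left out, side size, ranking genes and test. Libraries without Th (11) were not used.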

Additional observations from a re-analysis of the deposited data

How the results depend on the processing

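Limma called 82 genes higher and 11 lower on the high side, and these counts depended strongly on the setting, while all 93 called genes kept their direction in every alternative they entered (20 alternatives for 61 of them and 19 for 32, which lie under the stricter filter). The alternatives reuse all or part of the libraries that gave the calls, so the shared direction is partly built in. Higher and lower genes numbered 47 and 21 with median-ratio scaling, 24 and 1 with no filter on low values, 38 and 3 with a filter at 3 on the log2 scale, and 31 and 2 with a rank-sum test. With a sex-linked covariate (Xist above Ddx3y) they numbered 154 and 32, and with the 5 cell type scores as covariates 3 and 0. Without the relabelled and recovered libraries they numbered 3 and 0, and without the 6 libraries above 100 CPM of Slc17a7 18 and 2. Without the libraries holding both Xist and Ddx3y RNA, an alternative chosen after seeing the data, they numbered 53 and 13. Decimal libraries alone gave 0 and 0 (1156 and 315 at an unadjusted p of 0.05, from 7 high and 12 low libraries) and hexadecimal ones 2 and 1. Sides of 20 gave 198 and 48, and sides of 40 gave 104 and 35. Ranking without Fos gave 48 and 28, without Junb 155 and 25, and without Egr1 2205 and 502. A slope over all libraries with Th gave 577 and 205. The cause of these shifts was not tested, and some settings also leave fewer libraries or genes. A log2(CPM + 0.1) scale (69 and 8), no format covariate (102 and 10) and a depth covariate (118 and 16) stayed within 1.5 times of the higher count. Nr4a1 was called in 19 of 20 alternatives, Fosb in 18 of the 19 it entered and Btg2 in 17 of 20, and 0 genes were called in all. The slope over the 81 libraries of neither side called 0 genes under every alternative run. The median of all genes was 0.03 by total and -0.00 by median-ratio scaling. No paired analysis was possible because replicate numbers only name the animals. In the shallowest library 1 CPM stands for 15.2 counts, so genes near the filter rest on few counts.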
